A study of Mus musculus with 4 samples.

Results

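The apolipoprotein L (Apol) genes of the mouse were followed in lung RNA of CDF1 mice. The deposited files held 23282 rows. Of these, 13 carried an Apol symbol, and 9 of the 13 make up the members described here, namely Apol6, Apol7a, Apol7c, Apol8, Apol9a, Apol9b, Apol10b, Apol11a and Apol11b. The members were chosen by symbol with their values in these same libraries already known. Their levels and differences are therefore given as a description and carry no test. The values for Apol7b, Apol7d, Apol7e and Apol10a, the other Apol rows, are given beside those of their nearest relatives.

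The 4 groups crossed high-intensity treadmill exercise (E) with tumor (T) in male mice. Resting tumor-free mice were E(-)T(-), exercised tumor-free mice were E(+)T(-), resting tumor-bearing mice were E(-)T(+) and exercised tumor-bearing mice were E(+)T(+). Tumor-bearing mice had been given CT26, a colorectal carcinoma cell line of the mouse, by tail vein, so that the lung held tumor, lung tissue and blood together. The labels give postnatal day 28 and 10 mice per group. The methods place that age at purchase, and the mice were killed at the end of the experiment, so they were older when the lungs were taken. Each group was 1 library, and the sources leave it unsaid whether 1 mouse or several gave the RNA. For muscle the study used a representative animal per group, and how the lungs were chosen is not given in the sources used here. No difference given here has a replicate check, and the intervals cover counting error only.

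Reads were made from the poly(A) end of transcripts (QuantSeq 3′ mRNA-seq). Whole reads were recovered from the deposited log2 values. The tumor-free libraries held 13017400 reads at rest and 12780280 with exercise, and the tumor-bearing libraries 9354549 at rest and 13368142 with exercise. Levels are given as CPM, a gene's reads per 1000000 reads of its library, and 3 reads correspond to between 0.224 and 0.321 CPM. Lung identity held in all libraries, since none of 12 alveolar epithelial markers was at 0 in any of them. Their summed share was 2.16% of reads at rest and 2.45% with exercise in tumor-free lung, and 0.355% and 1.24% in tumor-bearing lung. Hemoglobin genes took 14.3% and 14.2% of reads in tumor-free lung, 1.43% in resting and 31.4% in exercised tumor-bearing lung. The beta globin rows Hbb-b1 and Hbb-bs had nearly equal reads, with 680681 and 689705 in E(+)T(+). So had Hbb-b2 and Hbb-bt, with 237673 and 246396 there. The same reads may have been counted in both rows of a pair, which would raise these shares and the library totals. This was not tested. A set of 13 neutrophil genes took 0.0372% and 0.107% in tumor-free lung, and 0.118% and 1.35% in tumor-bearing lung. The libraries thus differed widely in blood cell and epithelial transcripts. With bulk RNA, fewer cells of a type and less RNA per cell cannot be told apart.

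The family takes its name from human APOL1, a secreted protein of high-density lipoprotein particles that lyses trypanosomes. Mice have no APOL1 counterpart, and their Apol genes arose by tandem duplication. Most Apol proteins lack a secretion signal and act inside cells. Several members are known as interferon-induced genes. Interferons signal through STAT proteins, which bind the interferon-stimulated response element (ISRE) or the gamma-activated site (GAS) in promoters of the genes they induce.

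All 9 members lie on chromosome 15 (GRCm38, the assembly also named mm10, with GENCODE M21 annotation). Apol6 stands alone at chr15:77044729-77057106. After a gap of 331 kb, the other 8 members and Apol7b, Apol10a and Apol7e follow in a cluster of 369 kb at chr15:77388219-77757003. All 9 are annotated as protein coding. Apol7d is a different kind of gene, an antisense transcript on chromosome 1, and is no neighbour of the members.

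**Figure D1:**
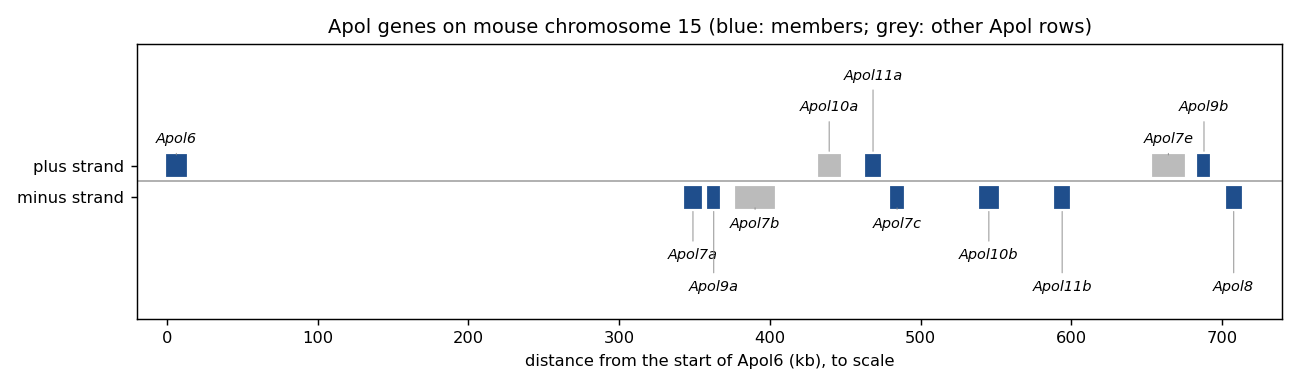
Positions of the Apol genes on chromosome 15 of GRCm38, as distance in kb from the start of Apol6 (horizontal axis, to scale). Boxes above the line are genes on the plus strand and boxes below it genes on the minus strand, blue for the 9 members and grey for the other Apol rows, and a gap of 331 kb separates Apol6 from the cluster that holds the other 8 members.

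Close copies limit what single rows can show. Among 75-base stretches in the last 500 bases of the annotated transcripts, 25.1% of those of Apol9a and 56.9% of those of Apol9b occur letter for letter in the other gene of the pair. Reads of Apol9a and Apol9b may therefore have been split or shared between both rows. The share was 12.9% for Apol7c, mostly with the gene model Gm8221, 8.0% for Apol11b, mostly with Apol10a, and at most 3.8% for each of the other 5 members. Outside the members, Apol7b and Apol7e shared 64.5% and 69.7%. Apol6 overlaps Mb, the myoglobin gene on the opposite strand, over 64 exon bases, and whether reads were counted by strand is not given in the sources used here. Mb had 128 reads at rest and 135 with exercise in tumor-free lung, and 62 and 76 in tumor-bearing lung, and the part of Mb in the Apol6 reads was not tested.

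Promoter windows show what the members share in sequence. RefSeq windows of 300 bases (250 before to 50 after the start, GRCm38.p6) were held for 8 of the 9 members, all but Apol6. The ISRE was searched on both strands as GAAA, any 2 bases and GAAA again. It was found in 6 of the 8, namely Apol7c, Apol9a, Apol9b, Apol10b, Apol11a and Apol11b, and not in the windows of Apol7a and Apol8. The match of Apol10b begins 4 bases before the start and runs across it, while those of the others lie wholly before the start. The same letters were in 3.44% of 32851 windows of that length over the genome. Duplicated promoters are not independent copies. Between Apol9a and Apol9b, 232 bases were aligned in the most alike pair of windows, and these were 100% identical. Between Apol11a and Apol11b, 300 bases were aligned and 99.3% of them were identical. The GAS letters TTCNNNGAA were in Apol11a and Apol11b, against 8.3% of all windows. The letters AGATAA, bound by GATA factors, were in none of the 8, against 11.2% of all windows. Other forms of the GATA letters were not searched. The stretch printed below for Apol11b, which Apol11a shares, holds ttatca, or TGATAA on the opposite strand. The search therefore does not show that GATA letters are absent from these windows. These matches describe the letters in the windows and do not show that a factor binds there.

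The stretches that carry the ISRE letters are shown for 3 members, 5′ to 3′ on the strand of the gene, as examples of the letters that 6 of the 8 windows share. Capitals mark the ISRE letters, which read on the opposite strand, and Apol7c and Apol9a each hold a pair of overlapping matches. The stretches lie on the minus strand, at chr15:77533345-77533430 for Apol7c, chr15:77411114-77411199 for Apol9a and chr15:77643317-77643396 for Apol11b.
Apol7c: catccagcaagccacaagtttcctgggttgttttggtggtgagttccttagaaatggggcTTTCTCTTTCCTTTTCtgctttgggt
Apol9a: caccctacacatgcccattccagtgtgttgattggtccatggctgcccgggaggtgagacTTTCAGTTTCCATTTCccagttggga
Apol11b: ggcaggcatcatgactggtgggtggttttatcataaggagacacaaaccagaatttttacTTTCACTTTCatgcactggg
Apol9b has the letters printed for Apol9a at chr15:77728975-77729060 on the plus strand, and Apol11a has those printed for Apol11b at chr15:77508159-77508238 on the plus strand. The capitals begin 55 bases before the start of Apol7c, 59 before that of Apol9a and 50 before that of Apol11b.

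Apol9a and Apol9b are interferon-induced genes with antiviral activity. Both were low in the exercised tumor-free lung. Apol9a had 20 reads at rest and 2 with exercise in tumor-free lung, and 21 at rest and 29 with exercise in tumor-bearing lung. For Apol9b these were 39 and 11 reads without tumor and 31 and 40 with tumor. In the exercised tumor-free lung, Apol9a was at 0.156 CPM, with an exact 95% interval of 0.019 to 0.565, against 1.54 to 2.25 CPM in the other libraries. Apol9b was at 0.861 CPM there, with an interval of 0.43 to 1.54, against 2.99 to 3.31 CPM elsewhere. For both genes the interval of the exercised tumor-free lung lay below that of every other library, while the other 3 intervals overlapped one another. Since the pair shares much of its 3′ sequence, these are not separate observations.

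Apol6 is induced by interferon gamma, and its human counterpart can promote cell death. It had 17 reads at rest and 7 with exercise in tumor-free lung, and 5 at rest and 51 with exercise in tumor-bearing lung. These correspond to 1.31, 0.548, 0.534 and 3.82 CPM. Apol6 was highest in E(+)T(+), where the interval of 2.84 to 5.02 CPM lay above the other 3 libraries, whose intervals overlapped one another.

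Apol7c is known from conventional dendritic cells, which take up and present antigen. It was rare, with 8 reads at rest and 0 with exercise in tumor-free lung, and 6 and 7 in tumor-bearing lung. The 3 libraries with reads, at 0.615, 0.641 and 0.524 CPM, did not differ beyond counting error, and the lack of reads in E(+)T(-) allows up to 0.289 CPM. Of 8 marker genes of conventional dendritic cells type 1 (cDC1), none was at 0 in any library. Their summed share was 0.0599% of reads at rest and 0.0499% with exercise in tumor-free lung, and 0.0227% and 0.0244% in tumor-bearing lung. Cadm1 made up most of this sum in tumor-free lung, with 5306 of 7791 reads at rest and 4709 of 6377 with exercise. In tumor-bearing lung it had 1419 of 2122 reads at rest and 1465 of 3263 with exercise. All 8 markers were higher by any amount in E(+)T(+) than in E(-)T(+), with a median log2 difference of 1.51. The part of these cells in the Apol7c values was not tested. Mature dendritic cell markers together took 0.0274% and 0.0282% without tumor and 0.0344% and 0.0239% with tumor. In resting tumor-bearing lung, Fscn1 alone made up 2115 of their 3222 reads, and 4 of the 7 markers above the limit on low values were lower there than in resting tumor-free lung by 2-fold or more, with a median log2 difference of -1.95.

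Apol7a had 28 reads at rest and 7 with exercise in tumor-free lung, and 39 at rest and 28 with exercise in tumor-bearing lung. Its highest level was in E(-)T(+), at 4.17 CPM, with an interval of 2.97 to 5.70. That interval met the upper ends of those of E(-)T(-), at 2.15 CPM, and of E(+)T(+), at 2.10 CPM. The level in E(+)T(-), 0.548 CPM with an interval of 0.22 to 1.13, lay below all of them. Apol7b and Apol7e, from the same cluster, had another order, with the highest level of both in E(-)T(-). Apol7b had 16 and 5 reads without tumor and 1 and 3 with tumor, and Apol7e 13 and 6 reads without tumor and 3 and 2 with tumor, resting lung first. Apol7d, the antisense transcript, had at most 2 reads in any library.

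Apol10b had 52 reads at rest and 23 with exercise in tumor-free lung, and 34 and 39 in tumor-bearing lung. It varied least of the members over the libraries, with a range of 1.08 on the log2 scale. Its level in E(+)T(-), 1.80 CPM with an interval of 1.14 to 2.70, lay below that of E(-)T(-), 4.00 CPM with an interval of 2.98 to 5.24. Both tumor-bearing libraries had intervals that overlapped those of the tumor-free ones.

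Apol11b was the most variable member and the only one with a mean normalized count of 50 or more. It had 125 reads at rest and 126 with exercise in tumor-free lung, 0 reads in resting tumor-bearing lung and 1384 in exercised tumor-bearing lung. Its level was 9.60 and 9.86 CPM in the tumor-free libraries, with overlapping intervals, and 104 CPM in E(+)T(+), with an interval of 98.1 to 109. In E(-)T(+), the lack of reads allows up to 0.394 CPM.

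Apol8 and Apol11a were seen in E(+)T(+) alone, with 5 and 10 reads there and 0 in each of the other 3 libraries. The same held for Apol10a, with 14 reads, save for 1 read in E(-)T(-). Apol11b, which shares some 3′ sequence with Apol11a and Apol10a, had 1384 reads in E(+)T(+). The part of Apol11b reads in the Apol11a and Apol10a rows was not tested. Apol8, Apol11a and Apol10a were all near the limit of detection. The floor of 3 reads corresponds to 0.224 CPM in E(+)T(+), where Apol8 was at 0.374, Apol11a at 0.748 and Apol10a at 1.05 CPM.

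**Figure D2:**
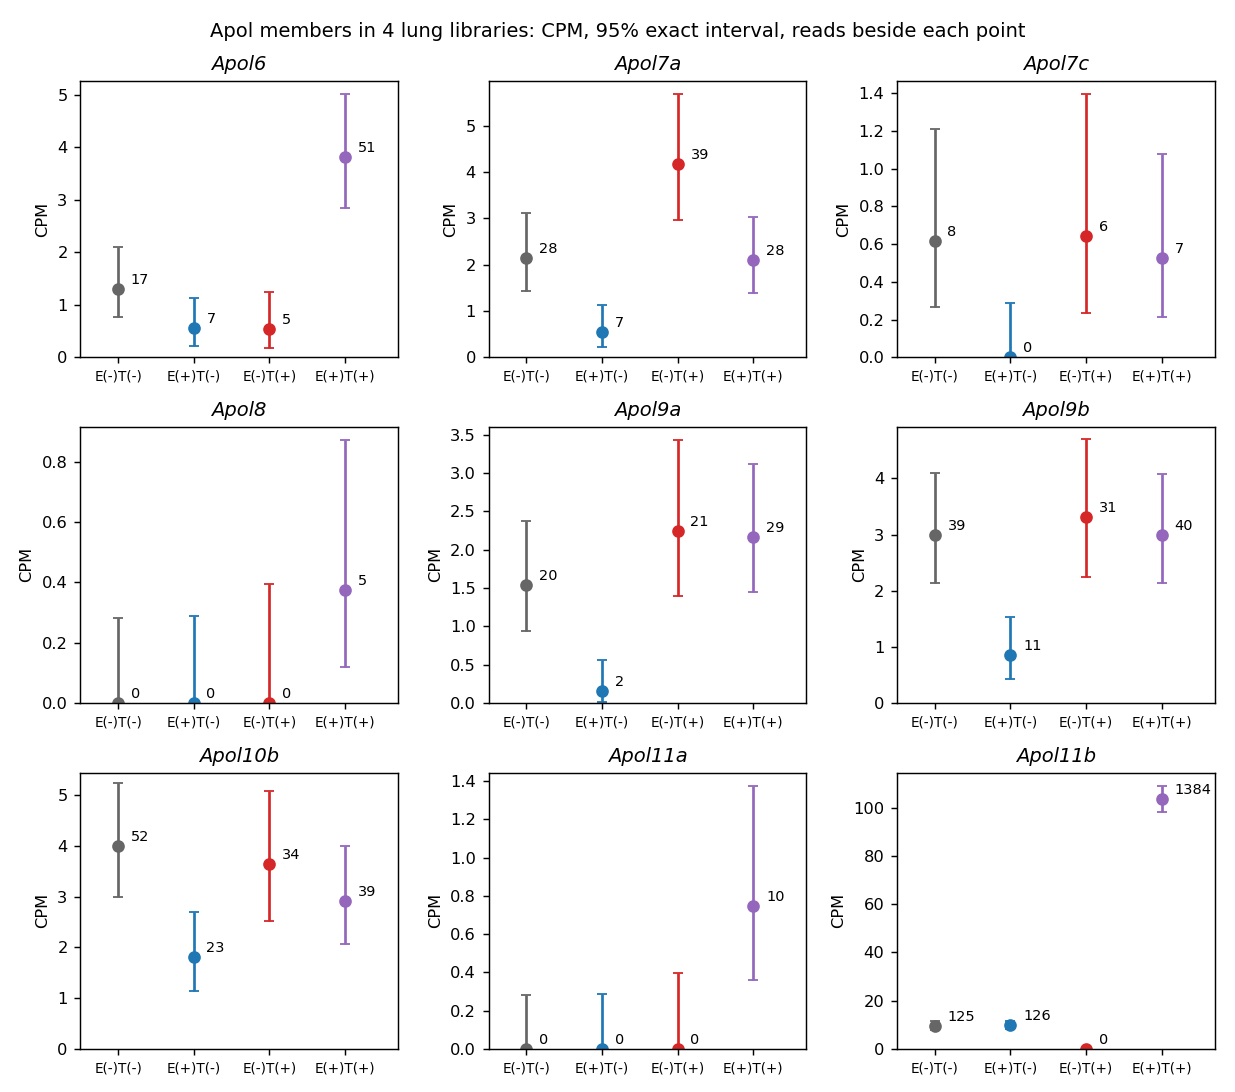
CPM of each member (vertical axes) in the 4 libraries (horizontal axes), with 1 library per group. Points are the measured levels, bars the exact 95% intervals for counting error, and the number beside each point its reads. Apol7a, Apol7c, Apol9a, Apol9b and Apol10b were lowest in E(+)T(-), and Apol6, Apol8, Apol11a and Apol11b were highest in E(+)T(+).

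The comparisons used log2(normalized count + 1) as the authors deposited it, on which a difference understates the change of low genes. The normalization multiplied the library totals by factors between 0.768 in E(+)T(+) and 1.17 in E(-)T(+) before levels were taken relative to them, so that a given CPM stands for more normalized counts in E(+)T(+). A gene was compared where its mean normalized count over the libraries was 4 or more, which held for 15164 of the 23282 rows and for 7 of the 9 members. Apol7c, at 5.38, was just inside this limit and Apol11a, at 2.83, and Apol8, at 1.40, were outside. A difference was counted at 2-fold or more. Bracketed ranges are exact 95% intervals of the log2 ratio of reads. Where a library had 0 reads, the fold is given against the floor of 3 reads, and the end of the interval nearer to 0 can allow a smaller one. The same contrasts were used to choose the members, so nothing is read from their counts against the shares over all rows, which are given for scale.

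Exercise without tumor was compared as E(+)T(-) over E(-)T(-). Of the 7 members above the limit, 6 were lower by 2-fold or more and none was higher. Over all rows, 9.98% differed by 2-fold or more, 4.7% were lower by that much, and among rows with a mean normalized count of 4 to under 50, a range set after the data were seen, 15.5% were lower. The differences on the log2 scale were -2.69 for Apol9a (-6.35 to -1.17), -1.63 for Apol9b (-2.83 to -0.72), -1.75 for Apol7a (-3.33 to -0.66), -1.03 for Apol10b (-1.84 to -0.33) and -1.06 for Apol6 (-2.68 to 0.18). Apol7c, with 8 reads against 0, was at least 2.47-fold lower when E(+)T(-) is set to the floor of 3 reads, and its interval ended at -0.66. The interval excluded 0 for 5 of these 6, all but Apol6. Apol11b had a difference of 0.12 (-0.25 to 0.49). With a pseudocount of 4, Apol6 at -0.83 and Apol10b at -0.94 no longer passed 2-fold, which left 4 members. Apol8 and Apol11a had no reads in either library.

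Of 25 interferon-stimulated genes, 18 were lower by any amount in this contrast, while 3 were higher by 2-fold or more and none lower by that much, with a median of -0.22 against 0.00 over all rows and -1.63 over the 7 members. Rsad2, which encodes the antiviral protein viperin, had 564 reads at rest and 719 with exercise, a difference of 0.46. Of 18 interferon gamma-induced genes above the limit, 14 were lower by any amount, 2 were lower by 2-fold or more and none higher by that much, with a median of -0.51. Iigp1, an immunity-related GTPase, was 1 of these 2, with 1050 reads against 379 and a difference of -1.36. Of 12 interferon receptor and signalling genes, 10 were lower by any amount and none passed 2-fold. Whether the members differ from these lists was not tested. Erythroid genes had a median of 0.09, alveolar epithelial markers one of 0.07 and cDC1 markers one of -0.49, with 7 of 8 lower by any amount. Neutrophil genes had a median of 1.47, with 8 of 13 higher by 2-fold or more. Genes of dividing cells had a median of 0.95, with 5 of 12 higher by that much and 10 of 12 higher by any amount. For megakaryocyte genes the median was 0.84 and for mature dendritic cell genes 0.32. The medians were 0.01 for endothelial, -0.04 for macrophage, -0.05 for fibroblast, -0.12 for T cell and -0.50 for B cell genes. The part of these cell types in the members' differences was not tested.

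The tumor at rest was compared as E(-)T(+) over E(-)T(-), which shares its resting tumor-free library with the comparison above. Of the 7 members, 2 were lower by 2-fold or more and none higher, whereas 46.2% of all rows passed this limit, 25.7% were lower, and 36.8% of those with a mean normalized count of 4 to under 50 were lower. Apol11b had 125 reads against 0 and was at least 32.3-fold lower against the floor of 3 reads, with an interval that ended at -4.70. Apol6 differed by -1.23 on the log2 scale, with an interval of -3.19 to 0.10 that included 0. With a pseudocount of 4, Apol6 at -0.945 no longer passed 2-fold, which left Apol11b alone. Apol7a differed by 0.82 (0.11 to 1.60), below the 2-fold limit. The values of Apol9a at 0.42, Apol9b at 0.04, Apol7c at -0.05 and Apol10b at -0.24 had intervals on both sides of 0. For Apol7c the sign changed, to 0.05, with library totals as the scaling, and for Apol9b, to -0.06, with totals that left out hemoglobin reads.

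Of 18 interferon gamma-induced genes, 14 were lower by 2-fold or more in this contrast and 1 higher, with a median of -1.63 against -0.03 over all rows and -0.05 over the 7 members. Irf1, an interferon-induced transcription factor, had 3246 reads in tumor-free and 776 in tumor-bearing lung, a difference of -1.70. Of the 25 interferon-stimulated genes, 8 were lower and 3 higher, and of the 12 receptor and signalling genes 6 were lower. Whether the members differ from these lists was not tested. Of the marker lists, the median difference was -5.48 for B cell genes, with 7 of 7 lower by 2-fold or more, -3.40 for endothelial genes, with 10 of 10 lower, -3.01 for erythroid, -2.49 for alveolar epithelial, -2.10 for cDC1 and -1.95 for mature dendritic cell genes. Of 8 T cell genes, 7 were lower by 2-fold or more. Genes of dividing cells had a median of 4.91, with 12 of 12 higher by 2-fold or more, neutrophil genes one of 2.01, with 11 of 13 higher, fibroblast genes one of 1.10, macrophage genes one of 0.82 and megakaryocyte genes one of 0.77. The part of these cell types in the members' values was not tested.

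Exercise in tumor-bearing mice was compared as E(+)T(+) over E(-)T(+). Of the 7 members, 2 were higher by 2-fold or more and none lower. Over all rows, 42% passed this limit, 24.3% were higher, and 34.9% of those with a mean normalized count of 4 to under 50 were higher. Apol11b had 1384 reads against 0 and was at least 492-fold higher against the floor, with an interval that began at 8.64 on the log2 scale. Apol6 had 51 reads against 5, a difference of 3.20 (2.13 to 5.13). Apol9a at 0.53, Apol9b at 0.45, Apol10b at 0.28 and Apol7c at 0.27 had intervals that included 0 and turned to -0.05, -0.14, -0.31 and -0.26 with library totals alone as the scaling. Apol7a was at -0.37 with an interval that also included 0. Below the limit on low values, Apol11a, with 10 reads against 0, was at least 3.56-fold higher against the floor and Apol8, with 5 against 0, at least 1.78-fold higher, with intervals that began at 1.26 and -0.03. Apol10a, with 14 reads against 0, was at least 4.98-fold higher, with an interval that began at 1.82.

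In the same contrast, 13 of 18 interferon gamma-induced genes were higher by 2-fold or more and 1 was lower, with a median of 1.44 against 0.01 over all rows and 0.45 over the 7 members. Igtp, an immunity-related GTPase, had 113 reads at rest and 837 with exercise, a difference of 2.97. Of the 25 interferon-stimulated genes, 10 were higher and none lower, with a median of 0.90. Rsad2 had 149 and 1890 reads, a difference of 3.75. Of the 12 receptor and signalling genes, 3 were higher and none lower, with a median of 0.66. Of 18 erythroid genes, 17 were higher, with a median of 5.14, as were 12 of 13 neutrophil genes, with a median of 3.53, and 11 of 12 alveolar epithelial markers, with a median of 2.36. The medians were 4.04 for B cell, 2.96 for megakaryocyte, 2.89 for endothelial, 2.20 for T cell, 1.71 for mature dendritic cell and 1.51 for cDC1 genes. Of 12 genes of dividing cells, 10 were lower by 2-fold or more, with a median of -1.98. Fibroblast genes had a median of -0.46, with 2 higher and 3 lower by 2-fold or more. For macrophage genes the median was -0.03, with 4 higher and 4 lower by that much. The part of these cells in the members' differences was not tested.

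The tumor under exercise was compared as E(+)T(+) over E(+)T(-). Its libraries also enter the comparisons of exercise with and without tumor. All 7 members above the limit were higher by 2-fold or more, and all 7 intervals excluded 0. Over all rows, 27.8% passed the limit, 14.9% were higher, and among rows with a mean normalized count of 4 to under 50 the share was 26.8%. Apol11b, with 1384 reads against 126, differed by 3.79 (3.54 to 4.08). Apol9a differed by 3.65 (2.22 to 7.32), Apol6 by 3.03 (2.07 to 4.60), Apol7a by 2.19 (1.12 to 3.79), Apol9b by 2.11 (1.22 to 3.32) and Apol10b by 1.08 (0.33 to 1.92). Apol10b no longer passed 2-fold with a pseudocount of 4 (0.98), with library totals as the scaling (0.67) or with totals that left out hemoglobin reads (0.99), which left 6 members. Apol7c, with 7 reads against 0, was at least 2.97-fold higher against the floor of 3 reads, with an interval that began at 0.88 on the log2 scale. Apol11a and Apol8, below the limit on low values, were at least 4.24-fold and 2.12-fold higher against the same floor, with intervals that began at 1.51 and 0.22.

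For Apol7a, Apol7c, Apol9a, Apol9b and Apol10b, the CPM of E(+)T(+) and of E(-)T(-) had overlapping intervals, and E(+)T(-) was the lowest library. Apol6, Apol8, Apol11a and Apol11b were highest in E(+)T(+) on the CPM scale. On the scale of the normalized counts, where the factor of E(+)T(+) raises its values, E(+)T(+) was the highest library for every member but Apol7a. Of 25 interferon-stimulated genes, 12 were higher by 2-fold or more and none lower, with a median of 0.53. Of 18 interferon gamma-induced genes, 8 were higher and 2 lower, with a median of 0.82. Of the 12 receptor and signalling genes, 3 were lower by 2-fold or more and none higher, with a median of -0.37. The median over the 7 members was 3.03. All 13 neutrophil genes, 16 of 18 erythroid genes and 11 of 12 genes of dividing cells were higher, with medians of 4.24, 1.98 and 2.12, as were 8 of 8 megakaryocyte and 8 of 11 macrophage genes, with medians of 2.90 and 2.01. The medians were 0.46 for fibroblast, -0.15 for mature dendritic cell, -0.45 for alveolar epithelial, -0.49 for endothelial, -0.54 for cDC1, -0.69 for T cell and -0.90 for B cell genes. The part of these cell types in the members' differences was not tested.

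**Figure D3:**
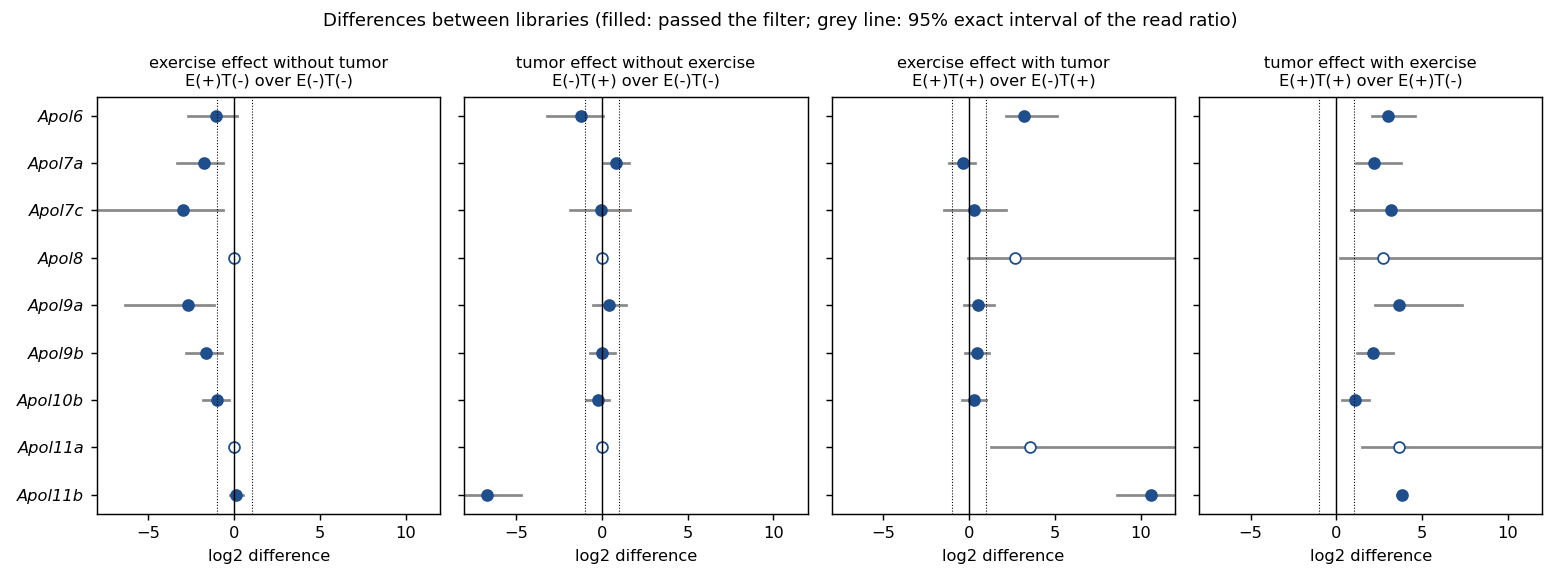
Log2 differences of the members (horizontal axes) in the 4 comparisons. Points are differences of the deposited log2 values, filled where the gene passed the limit on low values and open where it did not, and grey lines are exact 95% intervals of the read ratio, which run past the edge where a library had no reads, with dotted lines at 2-fold. In the exercise effect without tumor, 6 filled points lie at or below -1.03, and in the tumor effect with exercise 7 lie at or above 1.08.

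The pattern of Apol11b over the libraries was set beside that of 11215 other rows with a mean normalized count of 50 or more. Likeness was the root mean square difference between log2 values centred on their mean over the 4 libraries, where 0 is an identical pattern. Among the 5 nearest rows were Trim10 at 1.25, Paqr9 at 1.52, Slc4a1 at 1.70 and Hbb-b2 at 1.77. Trim10 acts in red cell maturation, Slc4a1 encodes the anion exchanger of the red cell membrane and Hbb-b2 a beta globin. Trim10 had 19 reads at rest and 22 with exercise in tumor-free lung, and 0 and 142 in tumor-bearing lung. For Slc4a1 these were 177 and 113 reads, then 17 and 2326. Paqr9, with 68 and 57 reads, then 0 and 83, was the nearest row whose difference between E(+)T(+) and the tumor-free libraries was small. Likeness depends on the size of the differences between libraries as well as on their order. With 4 points from single libraries, it describes similar values and says nothing of a cause.

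**Figure D4:**
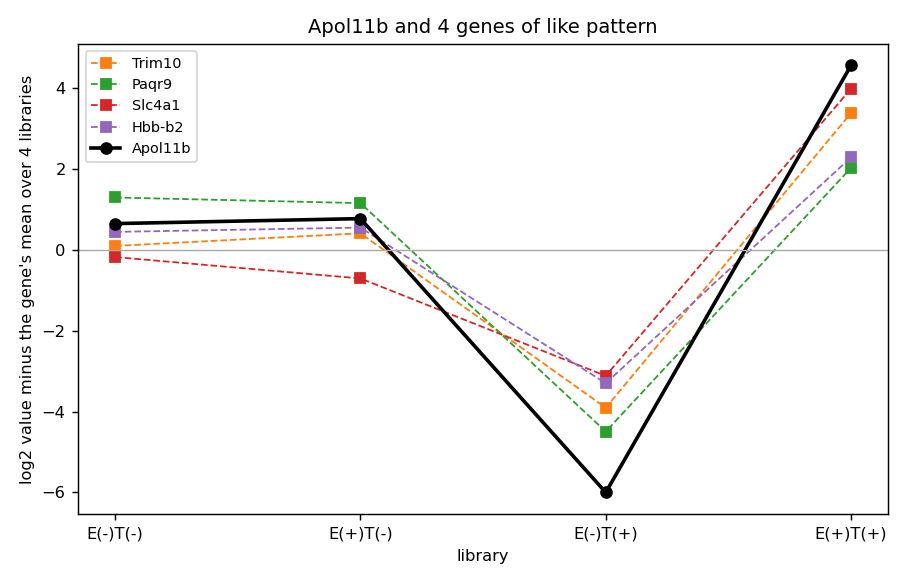
Log2(normalized count + 1) of Apol11b and of 4 of the 5 rows of most like pattern, centred on the mean of each gene over the 4 libraries (vertical axis), by library (horizontal axis). All 5 lines are lowest in E(-)T(+) and highest in E(+)T(+).

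Other erythroid genes varied in how near they came to Apol11b. Hemoglobin genes and Alas2, the heme synthesis enzyme of red cells, ranked between 5 and 35 of the 11215 rows. Tal1, Tfrc and Gata1 ranked 440, 2873 and 3697. Gata1, the erythroid transcription factor, had 1 read at rest and 19 with exercise in tumor-free lung, and 15 and 163 in tumor-bearing lung, so that its lowest library was E(-)T(-). Of the 18 erythroid markers found, Rhag, Ermap, Cldn13 and Trim10 were at 0 in at least 1 library, and Trim10, Ermap and Cldn13 were at 0 in E(-)T(+) together with Apol11b. The summed erythroid share was 14.4% and 14.2% of reads without tumor, and 1.44% at rest and 31.6% with exercise in tumor-bearing lung. It includes the beta globin rows that may hold the same reads.

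Relative to hemoglobin, Apol11b was not constant. In tumor-free lung it had 67.0 reads at rest and 69.6 with exercise per 1000000 hemoglobin reads. In exercised tumor-bearing lung this was 329. In resting tumor-bearing lung, with 133656 hemoglobin reads, the floor of 3 reads corresponds to 22.4, below the values of tumor-free lung. If beta globin reads were counted in more than 1 row, all these values are too low. The part of red cells in the Apol11b differences was not tested beyond these values.

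**Figure D5:**
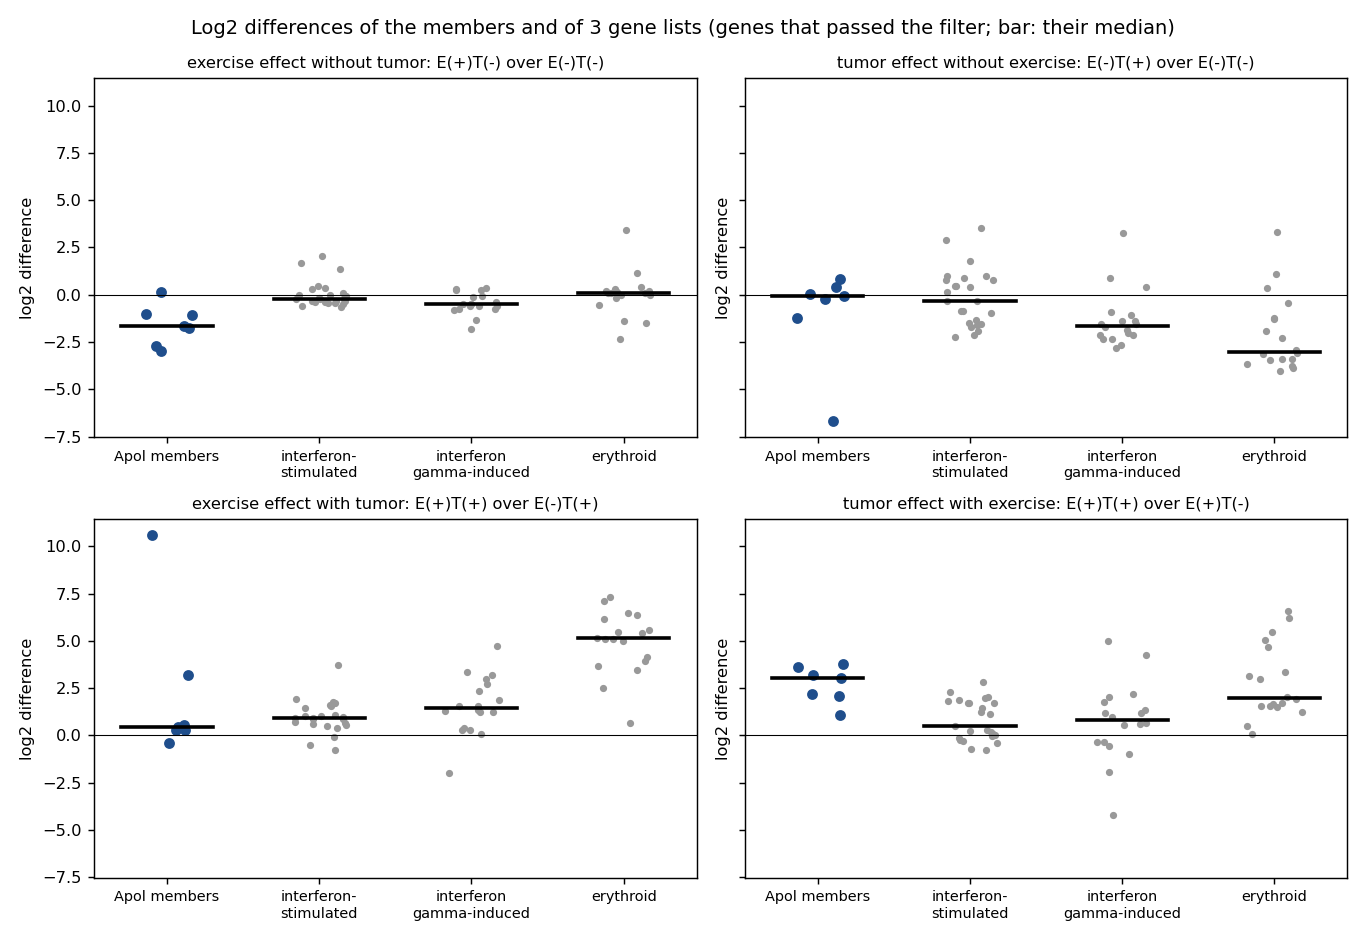
Log2 differences (vertical axes) of the members, of interferon-stimulated genes, of interferon gamma-induced genes and of erythroid genes in the 4 comparisons, for genes that passed the limit on low values. Each point is a gene and each bar the median of its group. In the exercise effect without tumor, the median was -1.63 for the 7 members, -0.22 and -0.51 for the interferon lists and 0.09 for the erythroid genes.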

How the data were processed

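Lung RNA was sequenced from the poly(A) end in 4 libraries. The submitters' processing notes name Bowtie2, bedtools and mm10. Versions, annotation and the use of strand are not given in the sources used here. The authors normalized counts with the quantile method of edgeR and deposited log2 values, which were found to be log2(normalized count + 1) to 3 decimals. Whole reads were recovered by inverting the negative binomial quantile adjustment, with a dispersion of 0.372 fitted to 12 repeated patterns. Recovered reads gave back 100% of the values to within 0.001, and 93.1% of the values were resolved to 1 read, those of the members included. The procedure was tested on simulated data, for which no values are given here. Differences are between single libraries, so no model was fitted and no p-value is given. Intervals for CPM and read ratios are exact (Clopper-Pearson), at 95%, and ignore PCR copies, since there were no molecular identifiers. Python 3.11.15, numpy 2.4.6, scipy 1.17.1, pandas 2.3.3, biopython 1.88 and matplotlib 3.10.9 were used. All value columns belonged to these libraries. The members, the gene lists and the tests were chosen with earlier results of these data known. By rule, the text names all Apol rows, the 5 rows most like any member with a mean normalized count of at least 50, and at most 4 genes of a pathway list, those of the highest mean. Of the rows most like Apol11b, 1 is not reported here. Alternatives covered the filter, the pseudocount, the scaling of libraries and the fold limit. Recovered reads over the library totals times their normalization factors were also used, with the pseudocount of 1 kept. Plain read ratios were not among the alternatives.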

Additional observations from a re-analysis of the deposited data

Results flagged for a closer look

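Apol6 and Apol11b differed in opposite directions under the same contrast, depending on the other factor. Exercise went with a log2 difference of -1.06 for Apol6 in mice without tumor and of 3.20 in mice with tumor. For the tumor, the difference of Apol6 was -1.23 at rest and 3.03 under exercise. For Apol11b, the tumor difference was -6.65 at rest, from 125 reads to 0, and 3.79 under exercise, from 126 reads to 1384. The value of -6.65 depends on the pseudocount and is no bound. With 1 library per group these differences between conditions were not tested, and the opposite directions of both genes rest on all 4 single libraries. The intervals of the lower Apol6 values, -2.68 to 0.18 and -3.19 to 0.10, included 0.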

How the results depend on the processing

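Scaling by library totals alone moved the median of all rows from 0.01 to -0.60 for exercise with tumor and from 0.00 to -0.41 for tumor under exercise, and the share of higher genes among those past 2-fold from 57.8% to 31.2% and from 53.5% to 27.8%. The counts of members past 2-fold were 6, 2, 2 and 7 for exercise without tumor, tumor at rest, exercise with tumor and tumor under exercise. With a minimum mean normalized count of 50, which left Apol11b alone, they were 0, 1, 1 and 1. At 4-fold, they were 2 for exercise without tumor and 1 for tumor at rest, and a pseudocount of 4 also gave 1 for tumor at rest. A pseudocount of 4 gave 4 for exercise without tumor and 6 for tumor under exercise, and library totals, with or without hemoglobin reads, gave 6 for the latter. With no minimum, exercise with tumor gave 4, because Apol8 and Apol11a entered. In all, 24 of 32 counts stayed within 1.5 times. Of 216 member differences under alternatives, 24 were of genes without reads in either library and had no interval. None of these alternatives was a read ratio without a pseudocount. Of the other 192, 190 moved by no more than the distance to the nearer bound of their interval, and none past 2-fold changed sign. The others were Apol11b at 8.64 for exercise with tumor (pseudocount of 4) and 3.38 for tumor under exercise (library totals). No paired analysis was possible because each group had 1 library, and for that reason no library could be left out of a comparison. Depth limits Apol7c, Apol8 and Apol11a, which had 0 to 10 reads in each library.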

Other observations

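Genes of plasma apolipoproteins and of high-density lipoprotein handling, a separate group from the Apol family, were described by the same limits. Of 20 such genes, 12 passed the limit on low values. In the tumor effect at rest, 5 of the 12 were higher by 2-fold or more and 3 lower, with a median of 0.65 against -0.03 over all rows. Apoe, the main apolipoprotein of macrophages, had 6164 reads at rest and 6890 with exercise in tumor-free lung, and 15914 and 11359 in tumor-bearing lung, and so was highest in E(-)T(+), where Apol11b had none. Pltp, the phospholipid transfer protein gene, had 2494, 2066, 808 and 1246 reads. Exercise without tumor gave 1 of the 12 higher and 1 lower, with a median of 0.03. Exercise with tumor gave 3 higher and none lower, with a median of 0.44, and tumor under exercise 7 higher and 1 lower, with a median of 1.13.

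Of the 9 genes that were high in resting tumor-bearing lung (500 normalized counts or more) and without reads in resting tumor-free lung, all had reads in exercised tumor-free lung, at 0.64% to 2.18% of their tumor-bearing level. The same shares of the member level in E(-)T(+) come to at most 0.93 normalized counts.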
